A study of Mus musculus with 6 samples.

Results

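SR and hnRNP proteins are the RNA-binding proteins that most widely decide which exons a cell keeps in its transcripts. Their genes were taken from the count table by symbol, as those that begin with Srsf and a digit or with Hnrnp, and a symbol marked as a pseudogene was dropped. This gave 31 genes of the 48397 in the table, 11 SR and 20 hnRNP genes. They were measured by RNA-Seq in 6 libraries of stage 0 iNKT cells, the youngest invariant natural killer T cells of the thymus. Each library came from about 1000 cells sorted out of the thymi of 3 mice, pooled at 8 to 10 weeks of age, as PBS57-CD1d tetramer+ CD44- CD24+ CD69+ cells that were CD8- and CD4 low or negative. The 3 BALB/c libraries came from wild-type mice, and the 3 SKG libraries from mice of the BALB/c strain with a hypomorphic mutation of Zap70, the kinase that carries the signal of the T cell receptor. The SKG mutation is present in every cell of the animal, so iNKT cells and the thymus around them both carried it, and a replicate is a pool of mice rather than a mouse. The comparison asks whether weaker receptor signaling goes with another supply of splicing factors at this stage.

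SR proteins carry RNA recognition motifs and a tail rich in arginine and serine, bind enhancer sequences within exons and help the spliceosome to recognize the exon. hnRNP proteins coat new transcripts through RNA recognition motifs, KH domains or other RNA-binding modules, and often act against exon inclusion. Many genes of both families control their own level through an alternative exon that sends the transcript to nonsense-mediated decay. In T cells the best known target is Ptprc, which encodes the phosphatase CD45. Hnrnpll and its relative Hnrnpl bind CA-rich RNA and promote the skipping of exons 4, 5 and 6 of Ptprc, which shortens CD45 from the forms found on naive lymphocytes to CD45RO.

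These variable exons are shown because they are the stretch of RNA on which Hnrnpll and Hnrnpl act. In GRCm38 they lie on the minus strand at chr1:138122456-138122584 (exon 4, 129 bases), chr1:138120020-138120166 (exon 5, 147 bases) and chr1:138117754-138117894 (exon 6, 141 bases), in the coding part of the longest GENCODE transcript of Ptprc. They are written from 5′ to 3′ on the coding strand, and capitals mark each CACA, a CA-rich stretch chosen as a simple stand-in for the binding preference of these proteins.
Ptprc exon 4: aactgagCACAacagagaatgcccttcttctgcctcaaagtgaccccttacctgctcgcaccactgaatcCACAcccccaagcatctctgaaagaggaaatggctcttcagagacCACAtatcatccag
Ptprc exon 5: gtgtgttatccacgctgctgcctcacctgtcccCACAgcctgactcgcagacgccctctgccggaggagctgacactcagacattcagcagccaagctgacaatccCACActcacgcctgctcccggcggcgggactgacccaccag
Ptprc exon 6: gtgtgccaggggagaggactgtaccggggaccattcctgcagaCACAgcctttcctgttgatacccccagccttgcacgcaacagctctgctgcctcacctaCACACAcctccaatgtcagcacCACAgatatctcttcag
Searched on the coding strand only and with overlapping matches counted, CACA occurred 3 times in exon 4, 2 times in exon 5 and 4 times in exon 6. The background was 19589 exons of 120 to 150 bases that lie wholly in coding sequence. They came from the transcript with the longest coding sequence of each protein-coding gene tested for differential expression below. Of these exons, 46.4% held at least 1 match, 15.2% at least 2, 4.12% at least 3 and 0.955% at least 4. Matches were not limited to the variable exons of Ptprc. Exon 2 held 3 in 112 bases and exon 7 held 2 in 72 bases, while other exons, 12 and 14 among them, had 0. A match is a string of letters and does not show that a protein was bound.

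The annotated transcript Ptprc-203 leaves out the 417 bases of exons 4, 5 and 6 and joins exon 3 to the 72-base exon at chr1:138116954-138117025. The annotated transcript Ptprc-204 also lacks exons 4, 5 and 6, but lacks that 72-base exon too and so does not hold this join. The join of Ptprc-203 is shown because a read across it would report a form without exons 4 to 6. Exon 3 is in small letters and the next exon in capitals.
Ptprc exon 3 to exon 7: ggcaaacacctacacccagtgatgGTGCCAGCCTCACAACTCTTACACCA
The deposited counts add all exons of a gene together, so reads across this join and reads within exons 4 to 6 were not told apart, and the share of CD45RO transcripts was not measured.

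The counts on genes ranged from 37176544 to 43115544 per library, and the number of genes with at least 10 counts from 10835 to 14791. Transcripts of T cell genes were abundant in all 6 libraries, Cd3e at 798 to 1096 CPM, and Cd24a at 7.31 to 90.7 CPM was low for a marker of the sort. CPM are counts relative to the TMM-scaled size of the library (counts per 1e6). Zap70 itself was at 498, 472 and 374 CPM in BALB/c and 322, 338 and 409 CPM in SKG, with overlap and a log2 fold change of -0.33 (standard error 0.17, edgeR adjusted p = 0.953), and counts of the gene do not show the mutation. The summed markers of CD4+CD8+ thymocytes reached 380 CPM in BALB/c replicate 1, against 69.3 CPM at the lowest in BALB/c and 100.02 to 213 CPM in SKG. For B cell markers the sums were 6.96 to 120 CPM in BALB/c and 4.57 to 124 CPM in SKG, for myeloid markers 106 to 229 and 71.7 to 243 CPM, for erythroid markers 0.0270 to 69.7 and 0.0515 to 0.691 CPM, and for thymic epithelial markers 28.1 to 40.3 and 10.0 to 86.9 CPM. Alas2, Krt5 and Psmb11 had 0 counts in every library. BALB/c replicate 1 also had the highest share of mitochondrial counts, 0.991% against 0.367% to 0.578% in the other libraries, and was the lowest of the 6 libraries for 14 of the 31 genes, where each of the others was lowest for 1 to 6.

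All 31 genes passed the filter on low counts, which kept 12312 genes. SR transcripts took 0.402% to 0.466% of the counts of a library and hnRNP transcripts 0.907% to 1.08%. Summed over the 11 SR genes, the level was 4048, 4429 and 4215 CPM in BALB/c replicates 1 to 3 and 4662, 4386 and 4575 CPM in SKG replicates 1 to 3. Summed over the 20 hnRNP genes it was 9126, 10925 and 10146 CPM in BALB/c and 10582, 10830 and 10023 CPM in SKG. For both families the libraries of the genotypes overlapped.

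Levels of different genes were compared as CPM per kb of exon, over all annotated exons of a gene. By this measure Hnrnpf, which binds G-rich RNA, stood first at 325 ± 31.8 (SD, n = 6 libraries), followed by the poly(C)-binding Hnrnpk at 259 ± 27.3, Hnrnpa2b1 at 232 ± 31.1 and Hnrnpab at 215 ± 46.1. At the other end were Hnrnph3 at 8.45 ± 3.37, Hnrnpr at 7.57 ± 0.873, Hnrnpul2 at 2.81 ± 0.999 and Srsf12 at 1.28 ± 1.62. Along the whole order, 29 of 30 neighbouring genes overlapped in their ranges over the libraries, and Hnrnpr over Hnrnpul2 was the exception. Hnrnpll was 26th at 12.0 ± 3.84 CPM per kb, and Hnrnpl at 50.7 ± 6.10 and Ptprc at 99.8 ± 6.10 were higher, with no overlap between these 3 genes.

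**Figure D1:**
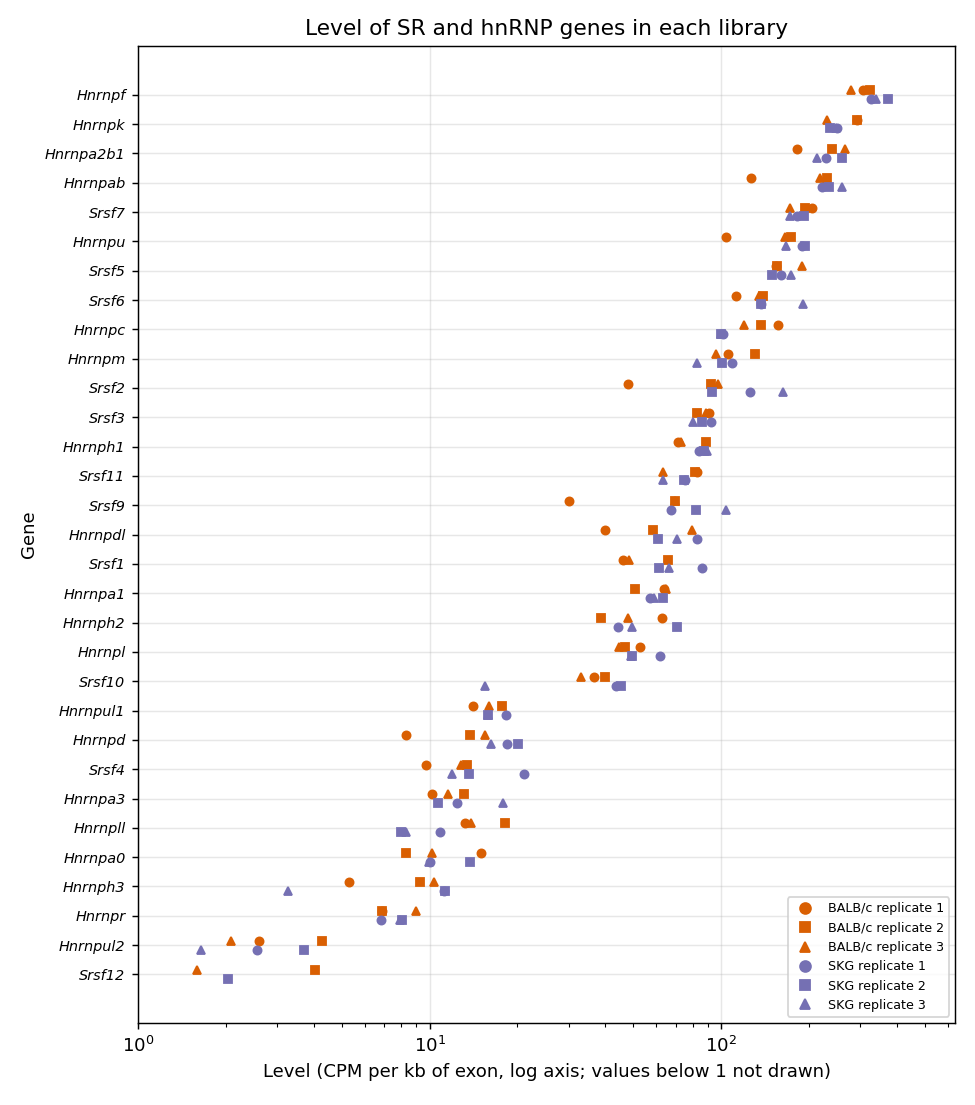
Level of each SR and hnRNP gene in CPM per kb of exon on a log axis, with 1 point per library, orange for BALB/c and violet for SKG. The genes run from Hnrnpf at 325 to Srsf12 at 1.28 on average, and 3 libraries of Srsf12 are below 1 and not drawn.

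The place of a gene in this order depended on the length assumed for it. Divided by the longest coding transcript in place of all exons, the mean levels were 883 CPM per kb for Hnrnpa2b1, 563 for Hnrnpk and 413 for Hnrnpf, and Hnrnpll was 22nd. Hnrnpf also carried the largest doubt about its reads. Of the 50-base stretches in its transcripts, 61.9% occurred in transcripts of other genes, among them 7 pseudogenes. The same share was 39.5% for Srsf4, 28.2% for Hnrnpa1 and 27.1% for Hnrnpa3, but 8.28% for Hnrnpc and 0.212% for Hnrnpll. Genes that overlap at the same place on either strand count here too. Other genes' exons cover 26.5% of the exon bases of Hnrnpf and 43.0% of those of Srsf4. Srsf4 shared stretches with 1 other gene and 0 pseudogenes, Hnrnpa1 with 19 pseudogenes and Hnrnpa3 with 41.

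Between SKG and BALB/c, no SR or hnRNP gene passed the thresholds for differential expression. A call needed an FDR under 0.1 together with a 1.5-fold difference, and the quasi-likelihood test of edgeR made 0 calls among the 31 genes, with a lowest adjusted p of 0.804, and called 0% of all genes tested. DESeq2 also called 0 of the 31, while calling 2.58% of the genes for which it gave an adjusted p (1.67% with shrunken fold changes), and limma-voom called 0 of the 31 and 0% of all genes. At an unadjusted p under 0.05 there were 2 of the 31, Hnrnpll and Hnrnpc, both higher in BALB/c, where 2.38% of all genes were at that p and higher in BALB/c and 5.45% in either direction. DESeq2 and limma-voom likewise each had 2 of the 31 at an unadjusted p under 0.05, where DESeq2 had 9.15% of the genes tested (8.77% with shrinkage) and limma-voom 7.86%. In bulk RNA, a lower level from fewer cells of a type and one from less RNA per cell cannot be told apart.

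Differences of the SR and hnRNP genes between the genotypes were small. Their median absolute log2 fold change was 0.18, against 0.43 over all genes tested and 0.27 over the 4744 genes with a mean of at least 50 CPM. The median level was 306 CPM for the 31 genes, 30.5 CPM for all genes tested and 112 CPM for those 4744. Neither set therefore matches the 31 genes in level, and the part that level has in these comparisons was not tested. A fold of at least 1.5 was reached by 3 of the 31, Srsf12, Hnrnpll and Srsf2, against 38.2% of all genes and 17.3% of those with at least 50 CPM. The median log2 fold change, SKG over BALB/c, was 0.05, with -0.02 for the SR and 0.06 for the hnRNP genes and -0.02 for all genes tested. It was above 0 for 19 of the 31 genes and for 49% of all genes. The spread between libraries of a genotype was small as well, with a median coefficient of variation of 17.5% against 41.9% for all genes and 24.9% for those with at least 50 CPM.

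**Figure D2:**
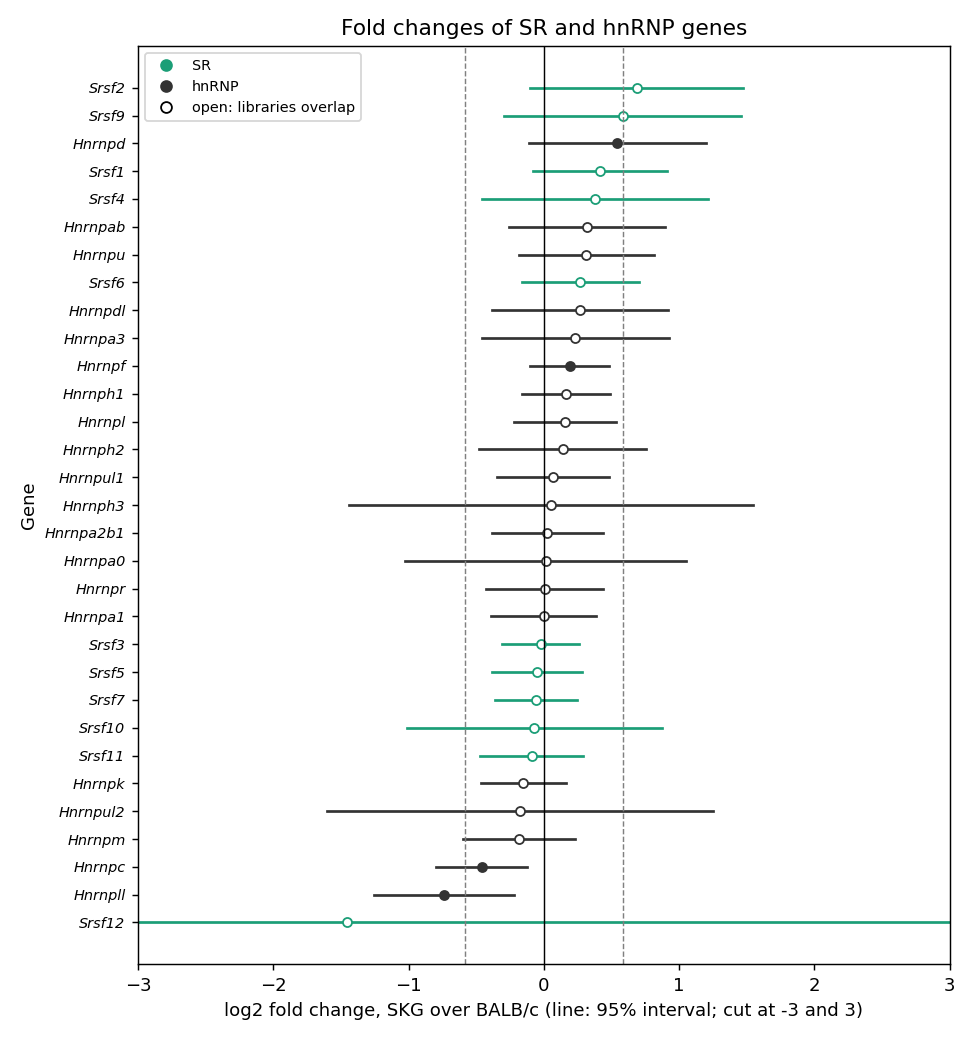
Log2 fold change of each SR (green) and hnRNP (black) gene, SKG over BALB/c, with the 95% interval of edgeR's quasi-likelihood fit, dashed lines at a fold of 1.5 and filled points where the libraries of the genotypes do not overlap. The intervals of Hnrnpll and Hnrnpc leave out 0, and that of Srsf12 runs past both ends of the axis.

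For 4 of the 31 genes the BALB/c and SKG libraries had no overlap in CPM, against 13.9% of all genes tested. Hnrnpll and Hnrnpc were higher in BALB/c, against 7.12% of all genes, and Hnrnpd and Hnrnpf were higher in SKG, against 6.77%. The count of 4 is thus near the share over all genes. All 4 are hnRNP genes and none of the 11 SR genes was among them, but counts this small and this near that share do not set the families apart. Hnrnpd overlapped when counts were scaled by library size alone or by upper-quartile factors. Without BALB/c replicate 1 the libraries did not overlap for 5 of the 31 genes, with Hnrnpl as the addition, against 21.6% of all genes.

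Hnrnpll encodes the hnRNP L-like protein that switches CD45 isoforms in activated and memory lymphocytes. It lies on chromosome 17 of GRCm38 from 80029487 to 80062334 on the minus strand. It had 6351, 7854 and 7311 counts in BALB/c replicates 1 to 3, or 154, 212 and 162 CPM, and 5092, 3631 and 3493 counts in SKG, or 126, 93.4 and 96.6 CPM. The highest SKG library was below the lowest BALB/c library, and BALB/c replicate 2 stood above all others. The means were 176 ± 31.3 CPM (SD, n = 3) in BALB/c and 105 ± 18.2 CPM (SD, n = 3) in SKG, which is 1.67-fold less in SKG. The log2 fold change was -0.74 (standard error 0.22, 95% interval -1.26 to -0.22), with an unadjusted p of 0.0124 and an adjusted p of 0.804 from edgeR. Leaving out single libraries gave values from -0.89 to -0.59. The adjusted p was 0.217 from DESeq2 without shrinkage and 0.296 with it. Apart from Srsf12, which had 0 counts in a library, this was the largest of the differences, and it did not pass the adjustment over all genes.

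Hnrnpl, which encodes the more widely expressed relative with the same RNA preference, lies on chromosome 7 from 28808541 to 28822266 on the plus strand. It was at 313, 278 and 265 CPM in BALB/c and 368, 295 and 291 CPM in SKG. The libraries overlapped, and the first replicate was the highest of each genotype. The log2 fold change was 0.16 (standard error 0.16, edgeR adjusted p = 0.991), and it was 0.03 without SKG replicate 1 and 0.23 without BALB/c replicate 1. Per kb of exon, the level of Hnrnpll relative to Hnrnpl was 0.250, 0.388 and 0.311 in BALB/c and 0.175, 0.162 and 0.169 in SKG. This ratio did not overlap between the genotypes, and its SKG values lay closer together than its BALB/c values. Hnrnpll alone did not overlap either, so the ratio is not a separate result. The size of the ratio depends on the length assumed for each gene. Over all exons the mean levels were 12.0 CPM per kb for Hnrnpll and 50.7 for Hnrnpl. By the longest coding transcript they were 45.1 and 113 CPM per kb.

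**Figure D3:**
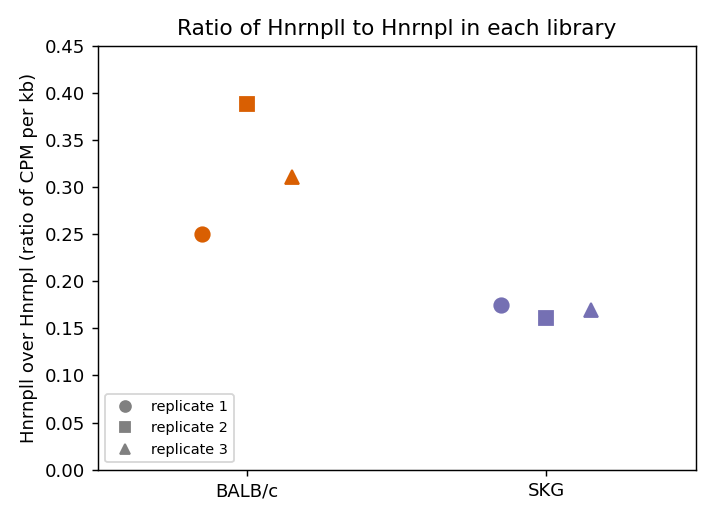
Ratio of Hnrnpll to Hnrnpl in each library, from CPM per kb of exon, on an axis that starts at 0. The BALB/c libraries lie between 0.250 and 0.388 and the SKG libraries between 0.162 and 0.175.

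Ptprc, the target of both, overlapped between the genotypes in its total level. It lies on chromosome 1 from 138062861 to 138175708 on the minus strand. It was at 1829, 1781 and 1822 CPM in BALB/c and at 1913, 1649 and 1973 CPM in SKG. The SKG libraries lay on both sides of the BALB/c libraries. The means were 1811 ± 26.04 CPM (SD, n = 3) and 1845 ± 172 CPM (SD, n = 3), with a log2 fold change of 0.03 (standard error 0.11, 95% interval -0.25 to 0.30, edgeR adjusted p = 0.997). That interval leaves out a change of 1.5-fold in either direction in the total of Ptprc, and the isoforms within that total were not counted. For every 1000 Ptprc counts there were 84.2, 119 and 88.9 Hnrnpll counts in BALB/c and 66.1, 56.7 and 49.0 in SKG.

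Of the 10 markers set for stage 0 iNKT cells, 2 did not overlap between the genotypes, Cd69, which the sort selects for, and Egr2, which receptor signaling induces. Cd69 was at 312, 391 and 354 CPM in BALB/c and 152, 179 and 249.5 CPM in SKG, and Egr2 at 1546, 1097 and 1408 CPM in BALB/c and 883, 956 and 493 CPM in SKG. The adjusted p from edgeR was 0.686 for Cd69 and 0.834 for Egr2. The other 8 markers overlapped, and of all 10 the log2 fold change was above 0 for 4, Cd24a among them, and below 0 for 6. The 10 mix genes set as high in these cells with genes set as low, Cd44, Cd8a and Cd8b1 among the latter. A direction therefore does not mean the same for each marker. Whether the difference of Hnrnpll has a part in common with these was not tested. The summed markers of the other cell types overlapped between the genotypes. Of their single genes that passed the filter on low counts, Fcer1g alone, 1 of 7 myeloid markers, did not. It was at 12.5, 10.4 and 9.76 CPM in BALB/c and 2.23, 1.34 and 4.84 CPM in SKG.

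Hnrnpc encodes a core protein of the particles that package new transcripts and binds runs of uridine. It lies on chromosome 14 from 52073377 to 52104028 on the minus strand. It was at 679, 593 and 519.8 CPM in BALB/c and at 437, 433 and 432 CPM in SKG. The lowest BALB/c library was above the highest SKG library, and the SKG libraries were nearly equal. The means were 597 ± 79.7 CPM (SD, n = 3) and 434 ± 2.88 CPM (SD, n = 3), a log2 fold change of -0.46 (standard error 0.14, 95% interval -0.80 to -0.12), with an unadjusted p of 0.0146 and an adjusted p of 0.830 from edgeR. Leaving out single libraries gave values from -0.54 to -0.35, the latter without BALB/c replicate 1.

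Hnrnpd encodes AUF1, which binds AU-rich elements and acts on the stability of cytokine transcripts. It was at 61.2, 101 and 114 CPM in BALB/c and 135, 148 and 119.9 CPM in SKG, so the groups were apart by a small gap between BALB/c replicate 3 and SKG replicate 3. Its log2 fold change was 0.54 (standard error 0.27, edgeR adjusted p = 0.952), and 0.33 without BALB/c replicate 1. Hnrnpf was at 936, 989 and 851 CPM in BALB/c and 993, 1139.8 and 1038 CPM in SKG. The gap between its groups was narrower still, and its log2 fold change was 0.19 (standard error 0.12, edgeR adjusted p = 0.982).

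**Figure D4:**
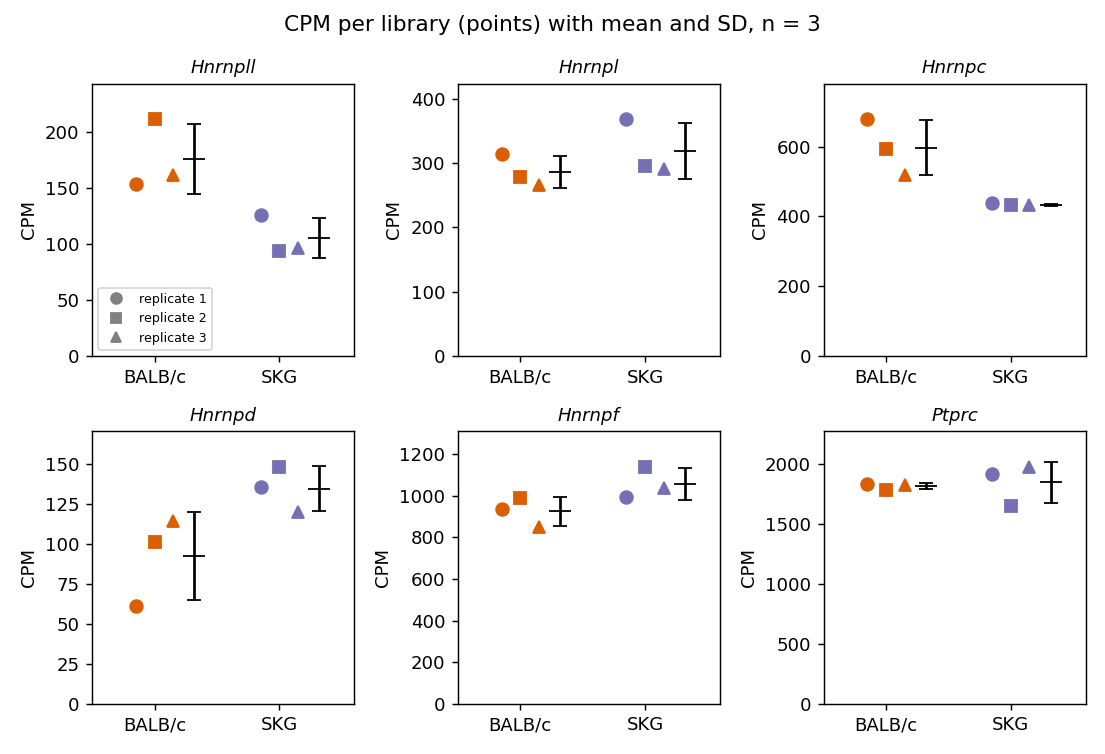
CPM in each library for Hnrnpll, Hnrnpl, Hnrnpc, Hnrnpd, Hnrnpf and Ptprc, with the mean and SD of the 3 libraries of a genotype beside the points, each axis starting at 0. Hnrnpll and Hnrnpc are lower in all SKG libraries, at 93.4 to 126 and 432 to 437 CPM, and Ptprc overlaps.

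None of the SR genes passed the test. Srsf2 encodes SC35, the classic marker of nuclear speckles. It was at 141 CPM in BALB/c replicate 1 and at 274 and 288 CPM in the other BALB/c libraries, and at 372, 276 and 482 CPM in SKG. Its log2 fold change was 0.68 (standard error 0.33, edgeR adjusted p = 0.952), and 0.43 without BALB/c replicate 1. SKG replicate 2 lay between BALB/c replicates 2 and 3, so the groups overlapped. Of the exon bases of Srsf2, 25.3% are also exons of Mettl23 or Mfsd11, and the counts without strand do not separate them.

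Srsf1, which encodes the founding SR protein SF2/ASF, was at 264, 376 and 276 CPM in BALB/c and 489.9, 350.5 and 378 CPM in SKG, with a log2 fold change of 0.41 (standard error 0.21), and of 0.25 without SKG replicate 1. Srsf9 was at 49.8, 115 and 115 CPM in BALB/c and 112, 135 and 172 CPM in SKG. Its log2 fold change of 0.58 (standard error 0.37) became 0.28 without BALB/c replicate 1, which alone was under 100 CPM. Srsf6 was at 541, 668 and 651 CPM in BALB/c and 659.7, 661 and 919 CPM in SKG, where SKG replicate 3 alone stood apart. Its log2 fold change was 0.27 (standard error 0.18), and 0.10 without that library. All 3 overlapped between the genotypes, and the adjusted p of each was 0.952 or more in the edgeR fit.

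Over the 8 canonical SR genes, Srsf1 to Srsf7 and Srsf9, the median log2 fold change was 0.32 and 5 were above 0. The sums over these 8 genes were 3094 to 3446 CPM in BALB/c and 3431 to 3932 CPM in SKG, with overlap. The steady members were Srsf3, Srsf5 and Srsf7, with log2 fold changes of -0.02, -0.05 and -0.06 and 95% intervals within 1.5-fold in both directions. For the 3 members numbered later, Srsf10, Srsf11 and Srsf12, all values were below 0. Srsf10, a splicing repressor when its tail is dephosphorylated, was at 109 CPM in SKG replicate 3 and at 231 to 317 CPM in the other 5 libraries, and its interval ran from -1.01 to 0.87. Srsf12 had 0, 473 and 227 counts in BALB/c and 2, 249 and 1 counts in SKG, on and off within each genotype. Its fitted log2 fold change of -1.45 (standard error 2.56) therefore rests on which libraries had counts.

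Among the other hnRNP genes, values were small. Hnrnpu encodes a nuclear scaffold protein that binds RNA and chromatin. It was at 1208, 2010 and 1919 CPM in BALB/c and 2204, 2247 and 1931 CPM in SKG, with a log2 fold change of 0.31 (standard error 0.21), and 0.12 without BALB/c replicate 1. Hnrnpab was at 351 CPM in BALB/c replicate 1 and at 608 to 726 CPM in the other 5 libraries, with a log2 fold change of 0.32 (standard error 0.24) that became 0.10 without that library. For both, then, the difference rested largely on the library that was low for many of these genes.

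Hnrnph1, which binds runs of G, was at 417, 517 and 426 CPM in BALB/c and 489.6, 509 and 522 CPM in SKG, with a log2 fold change of 0.16 (standard error 0.14), and of 0.26 without BALB/c replicate 2. Hnrnpk was at 1895, 1889.6 and 1497 CPM in BALB/c and 1609.7, 1530.5 and 1607 CPM in SKG, with a log2 fold change of -0.15 (standard error 0.13), which was -0.09 without BALB/c replicate 1 and -0.25 without BALB/c replicate 3. In both, the SKG libraries were the more alike and lay within the BALB/c range or partly above it. By family, the median log2 fold change was 0.02 for the 5 hnRNP A/B genes, 0.15 for the 4 F/H genes, 0.41 for Hnrnpd and Hnrnpdl, and 0.07 for the 3 U genes, while Hnrnpm was at -0.18 and Hnrnpr at 0.01. Hnrnpa1, the most studied hnRNP repressor, was at 160.2 to 204 CPM in BALB/c and 179 to 199 CPM in SKG, with a log2 fold change of -0.00 and a 95% interval of -0.39 to 0.39.

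Of the least expressed genes, Hnrnph3 was at 16.7, 29.1 and 32.6 CPM in BALB/c and 35.3, 35.7 and 10.3 CPM in SKG, with the low values in BALB/c replicate 1 and SKG replicate 3. Hnrnpul2 was at 18.5, 30.5 and 14.8 CPM in BALB/c and 18.2, 26.4 and 11.7 CPM in SKG. Hnrnpr was at 152, 152 and 199 CPM in BALB/c and 151, 178 and 175 CPM in SKG, and its low level per length goes with 22199 exon bases. Hnrnpa2b1, one of the highest, was at 1199, 1588 and 1751 CPM in BALB/c and 1504, 1707 and 1403 CPM in SKG, with a log2 fold change of 0.02. The groups of all 4 overlapped.

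What the libraries could bound differed between genes. For 12 of the 31 (38.7%) the 95% interval lay within 1.5-fold in both directions, against 4.04% of all genes tested. The median level of all genes tested was lower, at 30.5 against 306 CPM, and a set of matched level was not compared. For the other 19 the interval reached beyond 1.5-fold. It left out 0 for 2 of these, Hnrnpll and Hnrnpc, and for the rest it held both 0 and a change of that size.

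The other splicing genes examined were 76 in number, of which 74 were tested. They were hnRNP proteins under other symbols, SR-like and SR-related proteins, the kinases and the importer of SR proteins, further regulators and the core spliceosome. edgeR called 0 of them, against 0% of all genes, and 6 were at an unadjusted p under 0.05, 4 with the higher level in SKG and 2 in BALB/c, where 3.07% and 2.38% of all genes were. Their median log2 fold change was -0.02, and for 13 of the 74 the libraries did not overlap, 8 higher in SKG and 5 in BALB/c. Over all genes tested 13.9% did not overlap, 6.77% higher in SKG and 7.12% in BALB/c. DESeq2 called 1, Snrpd1, with an adjusted p of 0.0141 without shrinkage and 0.0180 with it, against the 2.58% and 1.67% that it called over all genes.

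Snrpd1 encodes the Sm protein D1 of the spliceosomal snRNPs. It was at 70.1, 53.8 and 70.1 CPM in BALB/c and 38.3, 26.8 and 29.5 CPM in SKG, with no overlap and a log2 fold change of -1.04 (standard error 0.31, edgeR adjusted p = 0.830). Ptbp2, the neuronal homologue of the polypyrimidine tract protein, was at 48.8, 58.7 and 51.7 CPM in BALB/c and 32.3, 9.36 and 6.69 CPM in SKG. It did not overlap either, and its log2 fold change was -1.72 (standard error 0.66), and -2.73 without SKG replicate 1. Ptbp1, the form of most tissues, was at 505 to 549 CPM in BALB/c and 509 to 689 CPM in SKG, with a log2 fold change of 0.20, and of 0.10 without SKG replicate 3.

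The 4 genes with an unadjusted p under 0.05 and higher values in SKG were Rbmx, Prpf3, Pnn and Sf3b1. Rbmx, which encodes hnRNP G, was at 258, 393 and 345 CPM in BALB/c and 519.9, 521 and 454 CPM in SKG. Prpf3, a protein of the tri-snRNP, was at 85.4, 96.5 and 118 CPM in BALB/c and 142, 167 and 149 CPM in SKG. Their log2 fold changes were 0.58 (standard error 0.19) and 0.61 (standard error 0.20), and the groups of both were apart. Pnn, which encodes the SR-related protein pinin, was at 157, 163 and 207.2 CPM in BALB/c and 303, 224 and 237 CPM in SKG, and Sf3b1, the branch point factor of the U2 snRNP, at 639.8, 786 and 910.1 CPM in BALB/c and 1074, 1304 and 945 CPM in SKG. Their log2 fold changes were 0.54 and 0.51, also with no overlap, and BALB/c replicate 1 was the lowest library for Rbmx, Prpf3, Pnn and Sf3b1 alike. These genes, like Snrpd1 and Ptbp2, were named for a low p, so their lack of overlap is not a separate result.

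Among the genes that act on SR proteins, Srpk1, a cytoplasmic SR protein kinase, was at 113, 182 and 143 CPM in BALB/c and 186, 195 and 209 CPM in SKG, with no overlap and a log2 fold change of 0.43 (standard error 0.21, edgeR adjusted p = 0.952), and of 0.28 without BALB/c replicate 1. Clk1, a nuclear SR protein kinase, had a log2 fold change of -0.16, which was -0.31 without SKG replicate 2, -0.04 without SKG replicate 3, -0.27 without BALB/c replicate 1 and -0.08 without BALB/c replicate 3. The SR-like activator Tra2b had one of 0.13, and of 0.09 without SKG replicate 2. Both overlapped between the genotypes.

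Some features of the 31 genes in the annotation were not used in the choice by symbol. All 31 were found in the GENCODE annotation of GRCm38, on 16 chromosomes. A transcript annotated as a target of nonsense-mediated decay existed for 19 of the 31 (61.3%), for 9 of the 11 SR genes (81.8%) and for 10 of the 20 hnRNP genes (50%), compared with 30.7% of 10099 protein-coding genes tested. The comparison does not allow for the number of transcripts annotated per gene. Transcripts subject to decay are counted together with the coding ones in these data, so a gene's level here is not the level of its coding transcript. Hnrnpll has 1 transcript annotated for decay and Hnrnpc 0. Exons of 14 of the 31 genes overlap another gene's exons, over more than 10% of their bases in 5 (Srsf2, Srsf4, Hnrnpab, Hnrnpf and Hnrnpm), and Hnrnpll and Hnrnpc are not among these 14. The share of all genes with such an overlap was not counted.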

How the data were processed

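RNA from 6 pools of sorted stage 0 iNKT cells, 3 per genotype, was sequenced with 50-nt reads. Per the labels, libraries were made with the SMART-Seq v4 kit and 18 cycles of preamplification, whereas the methods of the study name another kit and 8 cycles. The authors aligned reads to GRCm38 with HISAT2 2.1.0 and counted reads of mapping quality 10 or more on exons of Ensembl genes with featureCounts of Subread 1.4.4, without strand. The deposited table holds raw counts per gene symbol for all 6 libraries, unfiltered. A second deposited table holds only the authors' DESeq2 comparison (mean normalized counts, fold changes, standard errors, statistics and p-values) and was not used.

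Genes were chosen by symbol, and 1 pseudogene row with 6 to 36 counts was dropped. Members, lists and tests were chosen with earlier results of these data known. In R 4.3.3, edgeR 4.0.16 was run with filterByExpr, TMM factors and the quasi-likelihood F test over 12312 genes, without covariates, with Benjamini-Hochberg adjustment. A call needed an FDR under 0.1 together with a 1.5-fold difference, as in the study. Standard errors were taken as the size of the log2 fold change over the root of F. The fit was tested on simulated data. DESeq2 1.42.0, limma 3.58.1 (voom), other scalings and filters, replicate blocks, the number of detected genes as a covariate, other thresholds and each library left out were alternatives. An exact permutation test of 3 against 3 libraries cannot give a p below 0.1 and was not used. Libraries are independent pools per the labels. PCR copies were not removed by molecular identifiers, so counts are not counts of molecules.

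Named genes were Hnrnpll, Hnrnpl, Ptprc and Zap70, the 12 members with the lowest unadjusted p, members without overlap, the 4 highest and 4 lowest per exon length, and of the other splicing genes the 6 with the lowest unadjusted p and Ptbp1, Tra2b, Srpk1 and Clk1. Cd69, Egr2, Cd24a, Fcer1g, the counts of 3 or fewer genes, and the members named beside a family median or for a narrow or wide interval were added after their values were seen. Gene positions, exon lengths, transcripts and sequences came from the GENCODE annotation and genome of GRCm38. A 50-base stretch counted as shared when it or its reverse complement occurred exactly in a transcript of another gene, also one that overlaps at the same place.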

Additional observations from a re-analysis of the deposited data

How the results depend on the processing

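The count of 0 called SR and hnRNP genes was the same under all 19 alternatives. The stricter FDR and the absence of a fold threshold reuse the main fit. With a lowest edgeR adjusted p of 0.804 in that fit, their count could not differ. For all genes tested the count of 0 became 370 with DESeq2, 231 with its shrunken fold changes and 2 with no filter on low counts, and for the other splicing genes 1 and 1 with DESeq2 without and with shrinkage. Leaving out a library gave 0 called genes each time, 2 to 3 SR and hnRNP genes at an unadjusted p under 0.05, where 4.12% to 7.09% of all genes were, and 5 to 10 without overlap, where 21.6% to 27.1% of all genes had none. That last count was 10 without BALB/c replicate 2, 9 without BALB/c replicate 3 and 8 without SKG replicate 3, and fewer libraries overlap less by construction. Hnrnpll lay between -0.93 and -0.59 on the log2 scale over its alternatives, with adjusted p from 0.217 to 1. Between libraries of the same replicate number, deviations from the genotype means correlated at -0.0553, 0.00991 and -0.0657 over title numbers. Over the library numbers of the labels they correlated at -0.0261 and -0.0192. So few pairs cannot show whether libraries of a number were prepared together. With the title number as replicate block, 2 members were at an unadjusted p under 0.05, as were 4.75% of all genes, and the edgeR adjusted p of Hnrnpll was 0.957. With the library number as replicate block there was 1 such member, Srsf2, where 3.6% of all genes were at that p, Hnrnpll was at -0.93 (edgeR adjusted p = 1), and Hnrnpl turned to -0.0106 and Ptprc to -0.00107. Ptprc also turned to -0.0079 with library size alone and to -0.0217 with upper-quartile factors, and lay between -0.0116 and 0.112 with a library left out, below 0 without SKG replicate 1 or 3. All of these are within its standard error of 0. Over the members the median of log2 fold changes was -0.01 without SKG replicate 2 and above 0 otherwise. Of 437 values of the 23 other named genes, 434 kept direction and side of the threshold, and the others are Hnrnpl and Snrpd1, given above. The values under other thresholds are among the 437 and repeat those of the main fit. With the longest coding transcript as gene length, the median level of the members was 113 CPM per kb in place of 70.4. The cause of each of these shifts was not tested.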

Other observations

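Some SR and hnRNP genes lie near each other. Hnrnpd and Hnrnpdl are 54.6 kb apart on chromosome 5, Hnrnpll and Srsf7 138 kb on chromosome 17, Hnrnpk and Hnrnpa0 263 kb on chromosome 13, and Srsf10 and Hnrnpr 441 kb on chromosome 4. Hnrnpd and Hnrnpdl had log2 fold changes of 0.54 and 0.27, SKG over BALB/c, while Srsf7 was at -0.06 beside Hnrnpll at -0.74. Relative to Hnrnpk, the level of Hnrnpc per kb of exon was 0.536, 0.469 and 0.519 in BALB/c and 0.406, 0.424 and 0.402 in SKG. This ratio, chosen after the values of both genes were seen, did not overlap between the genotypes, and neither did Hnrnpc alone. Its size also depends on the gene lengths assumed.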
